A study of Mus musculus with 19 samples.

Results

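The transcripts described here encode the proteins of the cytosolic ribosome. Members were the genes whose symbol reads Rpl or Rps, then digits, then at most one of the letters a, l or x, together with Rpsa, Rplp0, Rplp1 and Rplp2. The rule used names only and found 81 of the 24348 genes listed in the files. Of these, 43 encode proteins of the large (60S) subunit, 30 encode proteins of the small (40S) subunit and 3 encode the P stalk, Rplp0, Rplp1 and Rplp2, where elongation factors dock. The other 5 are paralogues of ribosomal proteins: Rpl3l, Rpl10l, Rpl39l, Rps27l and Rps4l.

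The libraries came from the whole perigonadal fat pad of C57BL/6 mice made obese on either of 2 diets, and poly-adenylated RNA was sequenced. The groups were HFD fed (60% high-fat diet, sampled at peak weight, n = 4), HFD fasted (the same diet, then 24 hours without food, n = 4), Ensure fed (Ensure as the diet, at peak weight, n = 6) and Ensure fasted (Ensure, then 24 hours without food, n = 5). Titles read ALO and ALOneg for the HFD groups and OIO and OIOneg for the Ensure groups. The sources used here give neither sex nor age, and no lean group was part of the comparison. Whether every library stands for its own mouse is not stated, and in that case a p-value covers only the variation among the libraries, part of which may be technical.

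A ribosome carries 1 copy of almost every one of these proteins, so cells make them in nearly equal amounts. Many of their mRNAs begin with a C followed by a stretch of pyrimidines, the 5′ terminal oligopyrimidine (TOP) motif. Through it the nutrient-sensing kinase mTOR, with the binding protein LARP1, sets how well these mRNAs are translated. Read counts measure the mRNA and not its translation. Ribosomal protein genes have also left many processed pseudogenes in the mouse genome, and a read that matches a gene and its copy equally well cannot be placed at 1 of them.

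Of the 81 members, 60 were found in the RefSeq promoter table (build GRCm38.p6). The windows that follow run from 15 bases before the annotated start to 14 bases after it, with the start at base 16. Capitals mark the longest run of C and T within 20 bases of the start, as far as it lies in the window. The run of Rplp0 is 7 bases long and goes on past the window. They are shown because feeding state is known to act on this family through the TOP motif, whether or not a window holds such a run.
Rps6, chr4:86857353-86857382, minus strand: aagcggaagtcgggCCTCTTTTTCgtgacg
Rps18, chr17:33955651-33955680, minus strand: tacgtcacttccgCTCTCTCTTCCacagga
Rplp2, chr7:141447636-141447665, plus strand: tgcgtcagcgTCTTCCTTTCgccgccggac
Rpl14, chr9:120571502-120571531, plus strand: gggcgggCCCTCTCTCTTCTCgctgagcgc
Rplp0, chr5:115559452-115559481, plus strand: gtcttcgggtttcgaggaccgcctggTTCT
Rps4x, chrX:102189377-102189406, minus strand: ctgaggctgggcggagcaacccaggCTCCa
The 4 windows shown first hold a pyrimidine run across the annotated start, and those of Rplp0 and Rps4x do not. A run of at least 8 C or T on the transcribed strand within 20 bases of the start was present in 30 of the 60 members (50%). The share was 18.8% over all 27025 genes of the table and 18.8% among 69 mitochondrial ribosomal protein genes. A C exactly at the annotated start followed by 4 pyrimidines was found in 13 members (21.67%), in 3.01% of all genes and in 0 of the 69 mitochondrial ribosomal protein genes. An annotated start can lie a few bases from the start used in fat, so the absence of a run in a window says only that these letters are not there.

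The next sequences are shown because reads from them could be placed at 1 gene or at several. Each is the first 50 bases of the longest coding exon of the GENCODE M21 transcript (build GRCm38).
Rpl14, exon 6, chr9:120574095-120574144, plus strand: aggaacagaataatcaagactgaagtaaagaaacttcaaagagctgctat
Rpl37, exon 2, chr15:5117287-5117336, plus strand: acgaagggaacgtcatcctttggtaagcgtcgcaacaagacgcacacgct
Rpl21, exon 5, chr5:146835564-146835613, plus strand: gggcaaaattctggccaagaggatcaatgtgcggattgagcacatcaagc
Rpl8, exon 4, chr15:76904818-76904867, plus strand: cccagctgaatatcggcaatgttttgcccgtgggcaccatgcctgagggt
The Rpl14, Rpl37 and Rpl21 stretches occur with 0 differing bases in Rpl14-ps1, Rpl37rt and BC004004, on chromosomes 7, 5 and 17. Rpl14-ps1 and Rpl37rt are annotated as processed pseudogenes. BC004004 is annotated as a protein-coding gene and shares 27.3% of the Rpl21 windows. Rpl8 stands for the other end of the range, with 91.3% of its coding 50-base windows free of an identical match in any other gene. Rpl14, a 60S protein, was at 74.97 CPM (counts relative to the library's total, with TMM scaling) on average over the 19 libraries, and Rpl14-ps1 was at 166.55 CPM. Rpl37 was at 1.54 CPM against 103.11 CPM for Rpl37rt, Rpl21 at 29.2 CPM against 102.73 CPM for BC004004, and Rps23 at 1.34 CPM against 44.31 CPM for Gm5148. In 26 pairs, a member shared at least 20% of its windows with another gene that is listed in the files and is not a member. That gene is here called its copy. Copies that the files do not list have no level and are not among these pairs. An example is Rpl10-ps3, which shares 85.6% of the Rpl10 windows. The copy had the higher mean level in 6 and the member in 19, and Rpl26 and its copy were both at 0. Some copies, such as BC004004, Ndfip2 and Wdr89, are annotated as protein-coding genes. The level of such a gene can also hold reads from outside the shared stretch, so the pairs are not all alike. Rplp2, for example, was at 27.71 CPM against 2.64 CPM for Wdr89, and Rps2 at 46.89 CPM against 0.3 CPM for Gm10653. How the reads of the parent gene and the copy divide cannot be told from the counts.

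The members took a small part of the libraries, 0.32 to 0.59% of the counts in genes. One member, Rpl26, had 0 counts in all 19 libraries, and Rpl30 was at most 0.5684 CPM. These 2 members did not pass the filter on low counts, which left 79 tested. A count of 0 allows up to 0.124 to 0.209 CPM, depending on the library (3 counts, for counting error only). On average 38 members were under 10 CPM, 32 were at 10 to 100 CPM and 11 were at 100 CPM or more. The 10 members with the most reads held 57.5% of the members' level, led by Rpl4 (8.6%), Rpl8 (7.9%), Rps3 (7.2%) and Rplp0 (6.0%).

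Among the 76 members other than paralogues, 29 had no coding window free of an identical copy, and their median level was 2.883 CPM. The 36 members with less than 50% of such windows had a median of 31.32 CPM, and the 11 members with 50% or more had a median of 115.5 CPM, with the lowest, Rps21, at 34.02 CPM. Across the 76 members, which share libraries and are not replicates, Spearman's rho of level with the distinct share was 0.61, against 0.35 with coding length. Exceptions existed in both directions: 6 of the 29 members without a distinct window were at 10 CPM or more, as is seen in the plot of level against distinct sequence. For the 11 most distinct members, levels were also set per kb of transcript. They ran from 40.66 CPM per kb for Rpl22 and 56.37 for Rpl13a to 245.42 for Rps9 and, at the top, 348.82 for Rpl8. The length was that of 1 annotated transcript per gene, which need not be the one used in fat. No correction was made for windows shared with other genes, so these values do not rank the amounts of mRNA.

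**Figure D1:**
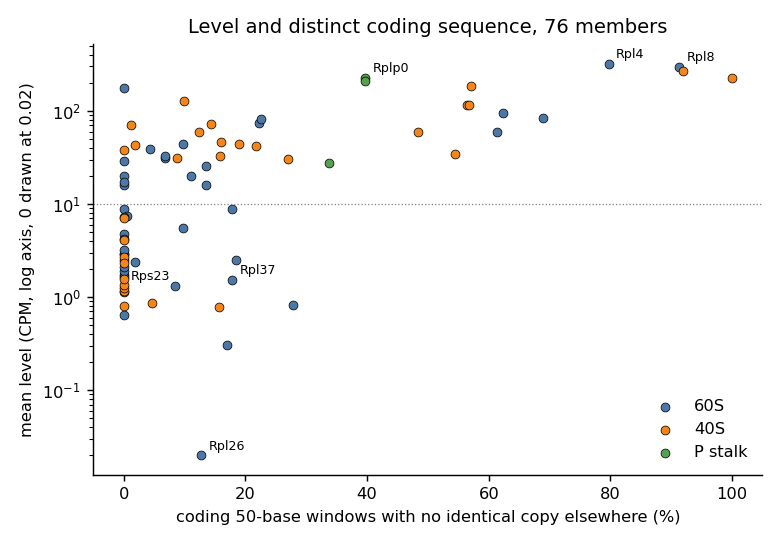
Mean level over the 19 libraries (CPM, log axis, dotted line at 10 CPM) against the percent of coding 50-base windows with no identical copy in another gene, for 76 members. Points are members, coloured by subunit; the 11 members at 50% or more all lie at or above 34.02 CPM, and Rpl26 is at 0.

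Counts in genes were 12.82 to 22.55 M per library, with a median of 20.23 M. The labelled tissue was checked against 12 adipocyte genes, which summed to 21380 to 59650 CPM, with none of them at 0 in any group. In bulk tissue, fewer cells of a type and less RNA per cell cannot be told apart. Both HFD fasted 28 and Ensure fasted 5 (libraries are named by group and title number) stood apart in the members. HFD fasted 28 had the highest level of its group in 72 of the 79 tested members and Ensure fasted 5 in 45 of 79. Reads that were not unique made up 27.7% of HFD fasted 28 and 25.97% of Ensure fasted 5, and 20.67 to 23.48% of the other 17 libraries. HFD fasted 28 also had the highest macrophage sum (12 genes, 9536 CPM, against 1508 to 5713 CPM in the other HFD fasted, 1787 to 3611 CPM in the HFD fed and 907.4 to 4369 CPM in the Ensure libraries). Ensure fasted 5 had the highest sums of smooth muscle genes (8751 CPM, against 503.3 to 1189 CPM elsewhere) and of epididymis and testis genes (11690 CPM, against 13.5 to 1240 CPM elsewhere). Its adipocyte sum was the lowest, at 21380 CPM against 35490 to 59650 CPM elsewhere. None of the 12 macrophage or 10 smooth muscle genes was at 0 in any group, and 1 of the 18 epididymis and testis genes was at 0 in the HFD fed group. The part of these cells in the members' levels was not tested.

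The rise in HFD fasted 28 was not shared by all members and not limited to them. Among the 43 members at 10 CPM or more, the median log2 ratio of HFD fasted 28 to the mean of the other HFD fasted libraries was 0.84, with a range of -0.29 to 1.96. Rpl14 was at 250.6 CPM there against 59.52 to 68.07 CPM in the others of its group. Rplp0, however, was at 225 CPM against 210.5 to 235.4 CPM, Rpl41 at 178.1 CPM against 162.1 to 172.6 CPM, and Rps2 at 39.65 CPM against 42.14 to 51.7 CPM. Other genes at 10 CPM or more with short transcripts were also high in this library: their median log2 ratio was 0.80 for transcripts of at most 600 bases, 0.55 up to 1000 bases, 0.34 up to 2000 bases, 0.12 up to 4000 bases and -0.16 beyond. Members had medians of 0.94 up to 600 bases (n = 8), 0.57 up to 1000 bases (n = 14) and 0.79 up to 2000 bases (n = 17). Longer members were at 0.70 up to 4000 bases (n = 2) and at 0.895 beyond (n = 1). The 600 to 1000 class thus lay near the other genes of its length, and the classes over 1000 bases lay above them. Lengths were those of 1 annotated transcript per gene, which need not be the one used in fat. Rps15a, for example, was taken as 5179 bases with a coding length of 390, and Rps20 as 3706 with 357. Members in the classes over 1000 bases may thus be set against genes of another length. In Ensure fasted 5 the members had a median of 0.29 and other genes had medians of -0.14 to -0.07 in the 5 length classes. The part of transcript length in the members' levels was not tested.

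**Figure D2:**
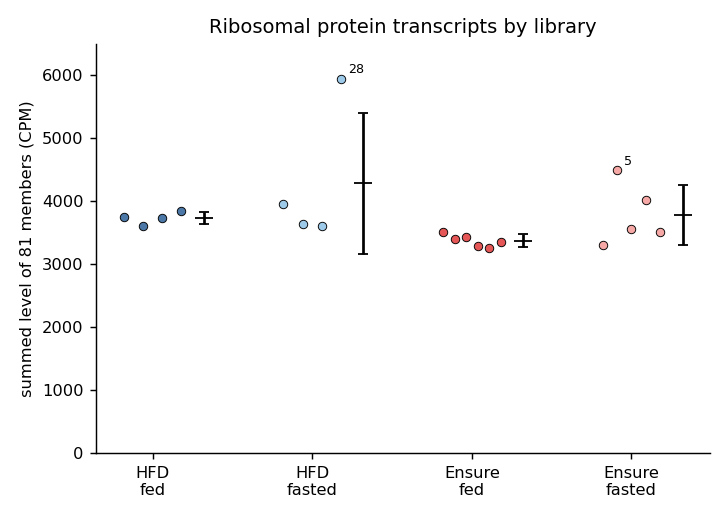
Summed level of the 81 members (CPM) in each library, by group; points are libraries and bars to the right of them are mean ± SD (n = 4, 4, 6 and 5). HFD fasted 28 is at 5947 CPM and Ensure fasted 5 at 4492 CPM, and the 6 Ensure fed libraries lie below the 4 HFD fed libraries.

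The summed level of the members was 3611 to 3843 CPM in HFD fed libraries. In HFD fasted libraries it was 3603, 3635 and 3964 CPM in 26, 24 and 23, and 5947 CPM in 28. In Ensure fed libraries the lowest, median and highest sums were 3264, 3382 and 3522 CPM, and in Ensure fasted libraries the sums were 3311, 3508, 3570, 4031 and 4492 CPM. The fed groups did not overlap, with Ensure below HFD, and each fasted group overlapped the fed group of its diet. As mean ± SD the sums were 3736 ± 95.86 CPM (n = 4), 4287 ± 1118 CPM (n = 4), 3380 ± 97.0 CPM (n = 6) and 3782 ± 476.4 CPM (n = 5).

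The first comparison asked what 24 hours without food did to these transcripts in HFD mice. No member passed the test: 0 of 79 were called higher and 0 lower by edgeR at an adjusted p under 0.05, where 0.187% of the 16015 tested genes were called higher and 1.03% lower (1.22% in all). No member's groups were free of overlap, against 2.24% of all tested genes higher and 6.23% lower. At an unadjusted p under 0.05, 6 members were higher and 0 lower, against 5.76% and 9.07% of all tested genes. DESeq2 called 0 members as well, and its share of all tested genes is not given here. The median log2 fold change of the 79 members was 0.30, with 71 above 0, and the median of all tested genes was 0.06. Without HFD fasted 28 the members' median was 0.03, with 48 above 0.

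The members of 10 CPM or more with the smallest p show the same dependence. Rpl23, a 60S protein, was at 20.54, 24.16, 24.82 and 26.38 CPM in HFD fed libraries and at 21.92, 24.8, 27.69 and 62.97 CPM in HFD fasted libraries, the last being HFD fasted 28. The other 3 fasted libraries overlapped the fed ones (log2 fold change 0.52 ± 0.24 SE, adjusted p = 0.319 by edgeR). The 40S protein Rps14 was at 49.75 to 62.56 CPM in fed and 56.74, 59.25, 65.33 and 111.8 CPM in fasted libraries (0.37 ± 0.17, adjusted p = 0.326). For Rpl14 the log2 fold change was 0.70 ± 0.33 (adjusted p = 0.336). Without HFD fasted 28 the Rpl14 value was -0.06, that of Rpl23 was 0.07 and that of Rps14 was 0.11.

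**Figure D3:**
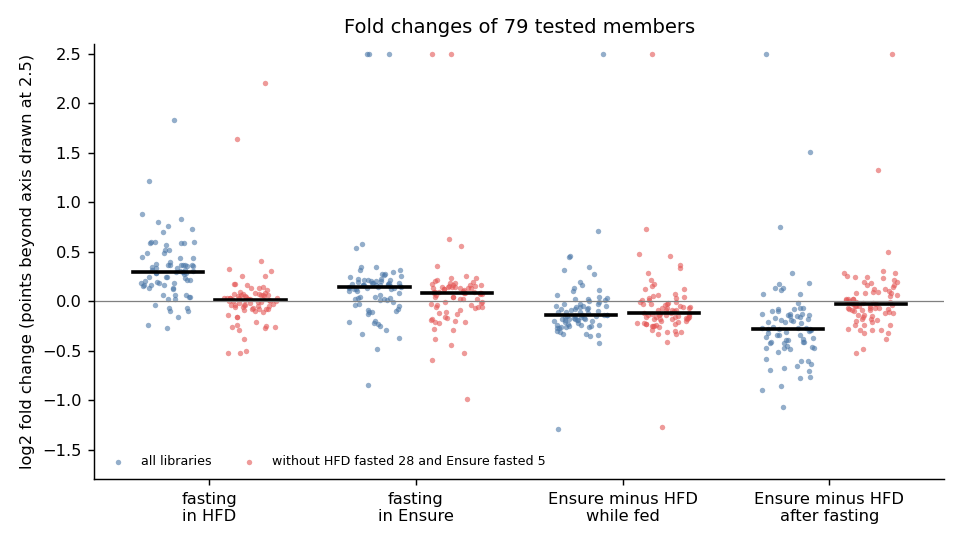
Log2 fold changes of the 79 tested members in 4 comparisons, with all libraries and without HFD fasted 28 and Ensure fasted 5; points are members and black bars medians. For fasting in HFD the median goes from 0.30 to 0.01, for fasting in Ensure from 0.14 to 0.08, for Ensure minus HFD after fasting from -0.28 to -0.03, and for Ensure minus HFD while fed from -0.14 to -0.12.

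The second comparison asked the same in Ensure mice. Rpl23a fell. In all, 1 of 79 members was called higher and 1 lower, against 10.6% higher and 9.77% lower of all tested genes (20.3% in all). The members' share was thus below the share of all genes in both directions. Their median log2 fold change was 0.14, with 59 of 79 above 0, beside a median of 0.11 for all tested genes. It was 0.04 without Ensure fasted 5, 0.09 without Ensure fasted 8 and 0.08, with 50 above 0, without HFD fasted 28 and Ensure fasted 5. Within sequencing lane 5 (4 fasted and 1 fed libraries) the members' median difference was 0.10 with 52 of 79 above 0, and within lane 6 (1 fasted and 4 fed) it was 0.07 with 49 above 0.

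Rpl23a, a 60S protein beside the exit of the peptide tunnel, is named although it lies under 10 CPM, because it was called. It was at 3.232, 3.953 and 5.222 CPM (lowest, median, highest) in Ensure fed and at 1.885, 1.978, 2.239, 2.288 and 3.134 CPM in Ensure fasted libraries. All fasted libraries lay below all fed ones, with a log2 fold change of -0.85 ± 0.22 (adjusted p = 0.0136). The call remained under all 19 alternatives, with values from -1.06 to -0.77. None of its coding windows is free of an identical copy elsewhere, and 60 other genes share at least 1 window of its transcript within 2 mismatches, so its counts come from the few reads that could be placed.

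Groups did not overlap in 5 members that were higher after fasting in Ensure and in 1 that was lower, against 5.63% and 9.35% of all tested genes. Among the higher ones were Rps9 (log2 fold change 0.22, adjusted p = 0.0946), Rps14 (0.35, 0.0957) and Rps21 (0.26, 0.198), none of which passed the test. The X-linked 40S protein Rps4x went from 114 ± 4.98 to 130 ± 14 CPM (n = 6 and 5), a log2 fold change of 0.20 ± 0.07 that missed the threshold (adjusted p = 0.0681). Rpl22, a 60S protein that is not needed for translation itself, went from 72.8 ± 3.63 to 88.0 ± 12.7 CPM (0.28 ± 0.11, adjusted p = 0.0841). Rpl22 was called in a fit of the Ensure groups alone and Rps4x by DESeq2. Without Ensure fasted 5 the Rpl22 value was 0.14 and the Rps4x value 0.10.

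**Figure D4:**
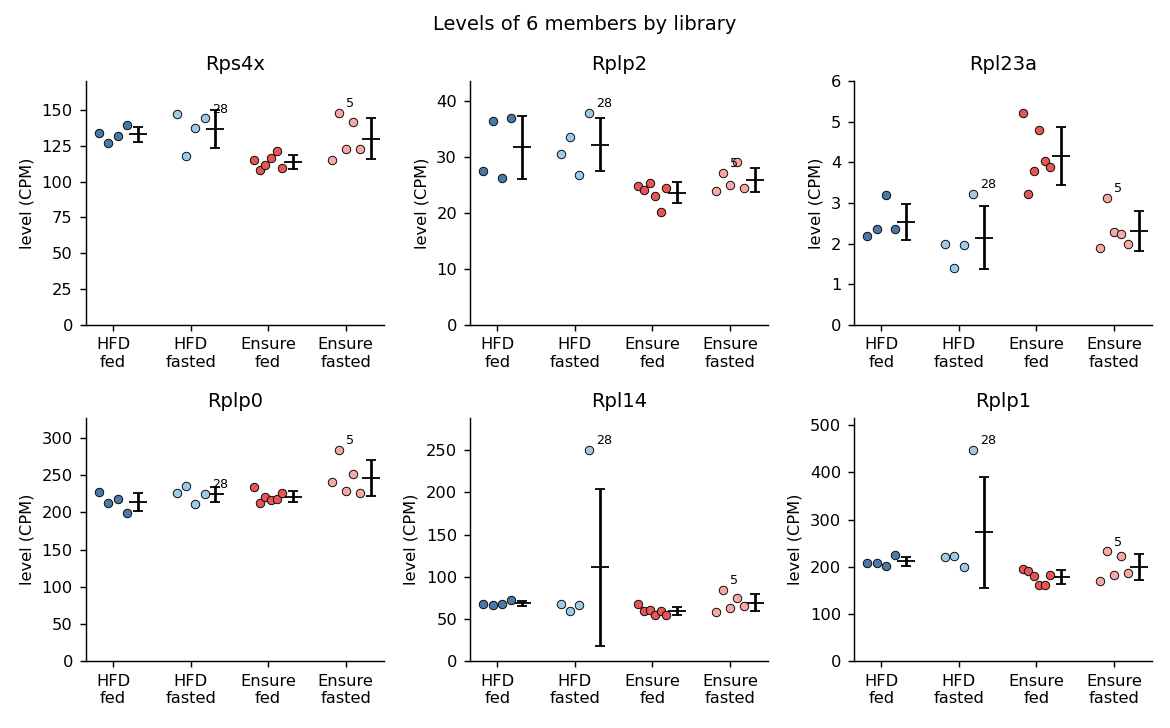
Levels (CPM) of 6 members by library and group; points are libraries and bars mean ± SD (n = 4, 4, 6 and 5), with HFD fasted 28 and Ensure fasted 5 marked by their numbers. Rpl23a is lower in all Ensure fasted than in all Ensure fed libraries, and Rplp2 is lower in all Ensure fed than in all HFD fed libraries.

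The responses to fasting were set against each other through the difference of the fold changes. No member was called (0 of 79, with 0.0% of all tested genes called). None had an unadjusted p under 0.05, against 4.79% of all tested genes higher and 2.92% lower. DESeq2 called 0 members, and its share of all tested genes is not given here either. The smallest p among members at 10 CPM or more belonged to the paralogue Rps4l (Ensure minus HFD response 0.37 ± 0.22 on the log2 scale, adjusted p = 0.753), Rps2 (0.24 ± 0.15, adjusted p = 0.757), Rpl32 (-0.38 ± 0.25, adjusted p = 0.78) and Rpl41 (0.26 ± 0.17, adjusted p = 0.783). A difference between the diets in how members answered fasting was thus not detectable, and the median standard error of members at 10 CPM or more was 0.21 for this difference. The members' median difference was -0.18, and 0.09 without HFD fasted 28.

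While fed, Ensure and HFD mice differed in 1 member. Rplp2, an acidic protein of the P stalk, was lower with Ensure, so that 1 of 79 members was called lower and 0 higher, against 2.17% and 2.09% of all tested genes (4.26% in all). At an unadjusted p under 0.05, 1 member was higher and 3 were lower, against 8.65% and 9.97%, and DESeq2 called 3 members, Rplp2, Rps4x and Rpl23a, and 9.68% of all tested genes. Rplp2 was at 26.24, 27.5, 36.3 and 36.86 CPM in HFD fed libraries, which formed a lower and a higher pair. In Ensure fed libraries its lowest, median and highest levels were 20.15, 24.25 and 25.23 CPM, all under the HFD fed ones. The log2 fold change was -0.43 ± 0.11 (adjusted p = 0.0398 by edgeR) and -0.35 for Ensure fed 18 against HFD fed within lane 7. The call ended in 10 of 18 alternatives: with lane as a term, without HFD fed 21, 22 or 27, without Ensure fed 1, 9, 12, 16 or 18, and without the 5 libraries richest in epididymis and testis genes (Ensure fasted 2 and 5, Ensure fed 10 and 12, HFD fasted 24), here called tract-rich.

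Beyond Rplp2 no member passed the test while fed. In 19 members all Ensure fed libraries lay below all HFD fed libraries and in 1, Rpl23a, all lay above, against 7.37% and 5.89% of all tested genes. The median log2 fold change of the 79 members was -0.14, with 61 below 0, beside -0.04 for all tested genes. With 1 library left out this median was -0.16 to -0.06, and it was nearest to 0 without HFD fed 21 (-0.06), Ensure fed 16 (-0.07), Ensure fed 9 (-0.08), Ensure fed 18 (-0.08) or HFD fed 27 (-0.08). Within lane 7 the members' median difference was -0.16, with 20 of 79 above 0. The log2 fold change of Rps4x was -0.23 ± 0.08 (adjusted p = 0.115), not past the threshold. All 11 members with 50% or more distinct coding windows had values below 0, with a median of -0.15. In a fit of the fed groups alone, 12 members were lower and 1 higher, where 19.8% of all tested genes were called. Without HFD fasted 28 and Ensure fasted 5 (libraries of the fasted groups), 8 were lower and 1 higher, where 14.5% of all tested genes were called. Mast cell sums moved with this comparison: 95.56 to 259 CPM in HFD fed and 41.04 to 68.47 CPM in Ensure fed libraries. Of the 8 mast cell genes 6 were called lower. Macrophage sums overlapped, at 1787 to 3611 CPM and 1534 to 2662 CPM. Of the 12 macrophage genes 2 were called lower, while 5 had values above 0 and the median log2 fold change was -0.11. None of either list was at 0 in a group. Also called were 2 of 6 neutrophil and 1 of 11 T cell genes (higher) and 1 of 10 smooth muscle genes (lower). Of 8 stromal progenitor genes 2 were higher and 2 lower. The part of these cells in the members' levels was not tested. Of the 6 Ensure fed libraries 5 ran on other lanes than the HFD fed ones.

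After fasting, no member differed between the diets by the test (0 of 79 called, against 1.63% of all tested genes higher and 1.19% lower, 2.82% in all). No member's groups were free of overlap, against 2.47% and 1.5%. At an unadjusted p under 0.05, 1 member was higher and 18 lower with Ensure, against 10.7% and 9.59% of all tested genes, and DESeq2 called 1 member, the paralogue Rpl3l, and 8.09% of all tested genes. The edgeR value of Rpl3l was 6.27 ± 2.02 (adjusted p = 0.098), and 2.89 (adjusted p = 0.424) without HFD fasted 28 and Ensure fasted 5. The median log2 fold change was -0.28, and -0.01 without HFD fasted 28. The smallest p at 10 CPM or more belonged to Rpl21 (-0.43 ± 0.15, adjusted p = 0.134), Rplp2 (-0.31 ± 0.12, adjusted p = 0.148), Rplp1 (-0.45 ± 0.18, adjusted p = 0.179) and Rps25 (-0.47 ± 0.19, adjusted p = 0.186). HFD fasted 28 held the highest value of all 19 libraries for these 4 members, for example 448.2 CPM of Rplp1 against 200.7, 221.6 and 222 CPM in the other HFD fasted libraries and 170.8 to 233.5 CPM in Ensure fasted libraries. Rplp2 differed less between the fasted libraries: it was at 26.81, 30.48, 33.56 and 37.84 CPM with HFD and at 23.88 to 28.98 CPM with Ensure. Mast cell sums again moved with the comparison, at 107.8 to 476.6 CPM with HFD and 31.48 to 80.5 CPM with Ensure. Of the 8 mast cell genes 6 were called lower, and none was at 0 in a group. Also called lower were 2 of 12 macrophage, 1 of 9 B cell and 1 of 8 stromal progenitor genes. Called higher were 3 of 6 neutrophil, 3 of 8 stromal progenitor and 1 of 8 endothelial genes. The part of these cells in the members' levels was not tested. No Ensure fasted library shares a lane with an HFD fasted one, so diet and lane cannot be told apart here.

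Members often used as reference genes differed in how even they were. Rplp0, the core of the P stalk, was at 214 ± 11.9, 224 ± 10.2, 221 ± 7.66 and 246 ± 23.6 CPM in the groups (fed then fasted, HFD before Ensure). Its log2 fold change with fasting was 0.07 ± 0.08 in HFD (adjusted p = 0.709) and 0.16 ± 0.07 in Ensure (adjusted p = 0.102). The 60S proteins Rpl13a, Rpl19 and Rpl32 and the 40S protein Rps18 were at 57.5 ± 3.26, 15.6 ± 1.13, 89.9 ± 5.23 and 57.8 ± 3.39 CPM in HFD fed libraries. In HFD fasted libraries they were at 71.7 ± 26.1, 17.8 ± 4.46, 115 ± 51.5 and 74.0 ± 29.1 CPM, and HFD fasted 28 was the highest for each (110.4, 24.31, 192.3 and 117.2 CPM). In HFD fasted libraries Rplp0 thus had the smallest SD relative to its mean of the 5, and none of the 5 passed the test in any comparison. Rpsa, a 40S protein also known as a laminin receptor, followed the same course, with 67.5 ± 1.41 and 86.9 ± 42.6 CPM in HFD fed and fasted libraries, against 64.6 ± 3.72 and 65.4 ± 6.67 CPM with Ensure.

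Rpl5 and Rpl11, 60S proteins that join 5S rRNA and can restrain MDM2, and Rps6, the 40S protein phosphorylated downstream of mTOR, were counted at low levels. Rps6 was at 7.15 ± 0.617, 7.86 ± 1.98, 7.03 ± 0.428 and 6.53 ± 1.40 CPM in the 4 groups in the order above. Rpl5 stayed between 1.396 and 5.859 CPM and Rpl11 between 0.9456 and 3.45 CPM in all libraries, and Rpl3, a 60S protein of the peptidyl transferase centre, was at 31.89 to 53.06 CPM. None of these 4 was called in any comparison. Of the 18 members named whatever their values, Rplp2 while fed was the only one called.

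The 5 paralogues fell into a pair that was broadly detected, Rps27l and Rps4l, and a rest that was not. Rpl10l and Rpl39l, known from testis, and Rpl3l, known from heart and skeletal muscle, were near 0 in most libraries. Rpl10l was highest in Ensure fasted 2 (8.448 CPM) and HFD fasted 24 (2.257 CPM) and at most 0.9526 CPM in the other 17 libraries. Rpl39l was highest in the same 2 libraries, at 7.122 and 3.429 CPM, and Rpl3l was at 41.49 CPM in Ensure fasted 5, with 4.329 CPM in Ensure fasted 2. Ensure fed 10 was next at 3.128 CPM. Epididymis and testis sums were 1240, 319.4, 11690 and 791.3 CPM in Ensure fasted 2, HFD fasted 24, Ensure fasted 5 and Ensure fed 10, and at most 246.8 CPM in the other libraries. The skeletal muscle sum was 292.2 CPM in Ensure fasted 5 and at most 100.4 CPM elsewhere, with none of its 8 genes at 0 in a group. The part of these cells in the paralogues' levels was not tested. For fasting in Ensure the fitted log2 fold changes were 4.02 ± 1.68 for Rpl10l (adjusted p = 0.0951), 2.83 ± 1.18 for Rpl39l (0.0939) and 3.66 ± 1.46 for Rpl3l (0.0828), none past the threshold. Without Ensure fasted 5, Rpl3l did not pass the filter on low counts, and without both HFD fasted 28 and Ensure fasted 5 its log2 fold change for fasting in Ensure was 0.63. Rps27l, a p53-responsive relative of Rps27, was broadly detected at 25.55 to 61.44 CPM and was not called (fasting in Ensure -0.29 ± 0.17, adjusted p = 0.209). Rps4l was at 17.3 to 34.53 CPM.

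Fold changes were also set side by side for members with and without a pyrimidine run at the start. The 30 members with a run of at least 8 had median log2 fold changes of 0.30 for fasting in HFD and 0.13 for fasting in Ensure, and the 29 tested members without one had 0.35 and 0.18. While fed, Ensure minus HFD gave -0.13 and -0.10, and after fasting -0.31 and -0.16. Of the calls while fed, that of Rplp2 was in a member with a run.

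Other parts of the translation machinery were then set beside the members. Markers of other cells moved with fasting in Ensure: 9 of 10 smooth muscle genes and 3 of 8 stromal progenitor genes were called higher and 1 of 12 adipocyte genes lower. Also called were 1 of 10 epithelial and 1 of 6 neutrophil genes (higher) and 1 of 8 endothelial genes (lower). Of 6 skeletal muscle genes 1 was higher and 1 lower. Smooth muscle sums were 613 to 819.7 CPM in Ensure fed libraries, 697.2 to 1189 CPM in 4 Ensure fasted libraries and 8751 CPM in Ensure fasted 5. Stromal progenitor sums were 5307 to 8482 CPM fed and 4409 to 10660 CPM fasted, with none of the 8 genes at 0 in a group. The part of these cells in the lists that follow was not tested. For fasting in Ensure, 16 of 55 tested genes of ribosome assembly and rRNA synthesis fell and 1 rose, with a median of -0.22, against 9.77% and 10.6% of all tested genes. Ltv1, an assembly factor of the 40S subunit, went from 44.5 ± 2.58 to 26.04 ± 3.68 CPM (n = 6 and 5, log2 fold change -0.77 ± 0.10, adjusted p = 8.74e-05 by edgeR). Bop1, a 60S assembly factor, fell by 0.57 on the log2 scale (adjusted p = 0.00083), and Rrn3, which recruits RNA polymerase I to rRNA genes, fell by 0.46 (adjusted p = 0.000536). These 3 calls remained under all 19 alternatives. The count of lower genes was 13 to 22 with 1 library left out, 10 with lane as a term and 7 without the 5 tract-rich libraries. In HFD, 0 of the 55 were called, with a median of -0.01, and Bop1 had -0.40 (adjusted p = 0.0951). The difference between the diets was called for none of the 55.

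Mitochondrial ribosomal proteins, which build the separate ribosome that translates mitochondrial mRNAs, were the largest list. With Ensure 35 of 77 fell and 0 rose after fasting, with a median of -0.32, against 9.77% lower and 10.6% higher among all tested genes. In HFD 2 fell and 0 rose, with a median of -0.15, against 1.03% lower and 0.187% higher. Mrpl12 went from 55.98 ± 2.94 to 29.04 ± 2.57 CPM with Ensure (-0.94 ± 0.08, adjusted p = 3.4e-06) and from 40.3 ± 4.03 to 27.78 ± 2.78 CPM with HFD (-0.54 ± 0.09, adjusted p = 0.0116). Mrpl50 fell by 0.76 with Ensure (adjusted p = 2.83e-05) and by 0.49 with HFD (adjusted p = 0.0204), and Mrps22 fell by 1.00 with Ensure (adjusted p = 8.74e-05). The HFD calls ended in a fit of the HFD groups alone and without HFD fed 25 or HFD fasted 23, and that of Mrpl50 also without HFD fed 22 or HFD fasted 24. The Ensure count was 28 to 43 with 1 library left out, 15 with lane as a term, 13 without the 5 tract-rich libraries and 54 without HFD fasted 28 and Ensure fasted 5. While fed, Mrpl12 (0.47 ± 0.08, adjusted p = 0.00471), Mrpl17 (0.43 ± 0.09, adjusted p = 0.0128) and Mrpl49 (0.33 ± 0.08, adjusted p = 0.0313) were higher with Ensure than with HFD. These 3 calls ended with lane as a term, that of Mrpl17 also without HFD fed 22 and that of Mrpl49 without HFD fed 25 or Ensure fed 1.

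Of 20 translation factors and other genes with TOP mRNAs, 4 rose and 0 fell after fasting with Ensure, against 10.6% and 9.77% of all tested genes. Eif4b, which stimulates the helicase of initiation, went from 180.7 ± 8.04 to 258.5 ± 15.9 CPM (0.52 ± 0.06, adjusted p = 5.94e-05) and remained called under all 19 alternatives. Eif3f (0.36 ± 0.09, adjusted p = 0.00969), the elongation factor Eef2 (0.36 ± 0.10, adjusted p = 0.0217) and Eif4a2 (0.40 ± 0.13, adjusted p = 0.0372, named after its value was seen) also rose. Their calls ended with lane as a term and without the 5 tract-rich libraries. Eef2 was also lost with no filter on low counts and without Ensure fed 9, 16 or 18 or Ensure fasted 5, and Eif3f without Ensure fed 18. Eif4a2 was lost in 11 of 19 alternatives. In HFD 0 of the 20 were called and Eif4b had 0.24 ± 0.07 (adjusted p = 0.134).

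Of 25 genes of the mTOR pathway and translation control, 2 rose and 4 fell with fasting in Ensure, a share near that of all tested genes (10.6% higher and 9.77% lower), so nothing is read from the list as a whole. Eef2k, the kinase that inhibits Eef2, went from 55.81 ± 3.79 to 82.79 ± 8.06 CPM (0.57 ± 0.09, adjusted p = 0.000612) and was called under all 19 alternatives. Gatsl3, an arginine sensor upstream of mTOR, rose by 0.70 on the log2 scale (adjusted p = 0.0138, lost with lane as a term). The cap-binding protein gene Eif4e fell by 0.44 (adjusted p = 0.00659, lost with lane as a term and without the 5 tract-rich libraries). With HFD, 0 of the 25 were called. Of 7 tested cytosolic ribosomal proteins outside the rule, Rpl7l1, a paralogue with a role in 60S assembly, fell with Ensure (-0.48 ± 0.12, adjusted p = 0.0088) and was lost under the same 2 alternatives. Bysl, a 40S assembly factor, was the only assembly gene higher with Ensure while fed (0.54 ± 0.14, adjusted p = 0.0314), and lost that call in 7 of 18 alternatives.

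**Figure D5:**
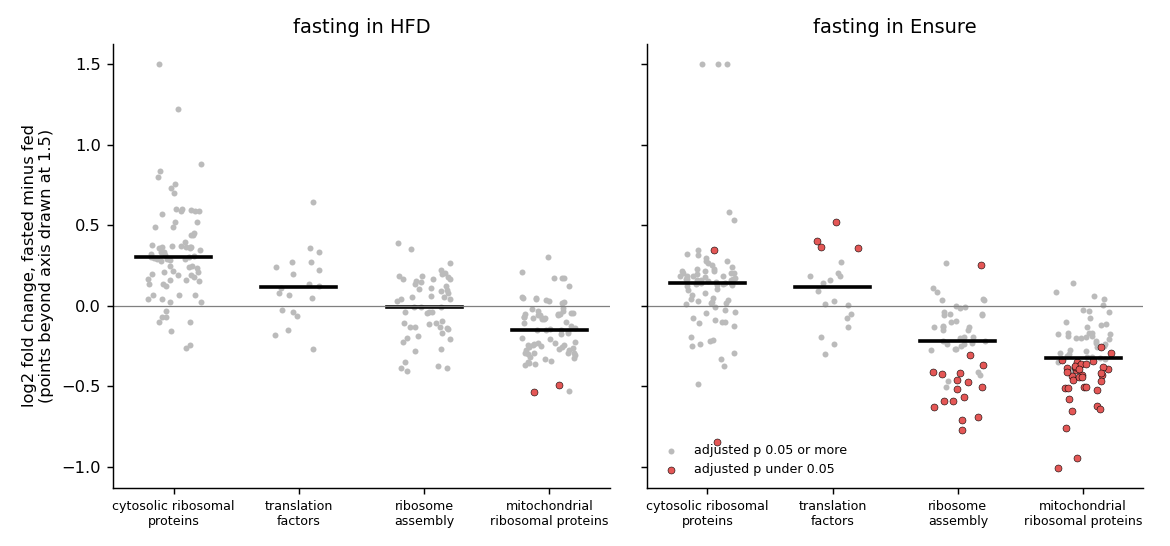
Log2 fold changes with fasting in HFD and in Ensure for the members, translation factors, ribosome assembly genes and mitochondrial ribosomal proteins; points are genes, red where the adjusted p is under 0.05, and black bars are medians. In Ensure the medians are 0.14, 0.12, -0.22 and -0.32, and in HFD 0.30, 0.12, -0.01 and -0.15.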

How the data were processed

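Poly-adenylated RNA was sequenced (TruSeq, HiSeq2000) from 19 libraries in 4 groups. The authors deposited raw read counts per gene. The mm9 build, HTSeq 0.6.1, TopHat2 2.1 and bcl2fastq 1.8.4 are named per the submitters' processing notes, and for strand setting and read length no value was given in the sources used here. HTSeq's summary lines (not unique, no feature, ambiguous) were kept out of library sizes. They amounted to 20.67 to 27.7%, 13.01 to 17.32% and 0.7 to 0.89% relative to the reads in each library. The 37 pairs of replicates differed by 6.77 to 272.43 chi-square per gene, so that none was counted as 1 sample.

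All 4 groups entered 1 fit by edgeR 4.0.16 (R 4.3.3, quasi-likelihood test, TMM scaling, filterByExpr with a minimum count of 10), and p-values were adjusted by Benjamini-Hochberg over all 16015 tested genes. A gene was called at an adjusted p under 0.05. Levels are TMM-scaled CPM computed from the deposited counts, and ± after a log2 fold change is the standard error. Differences within a lane are between mean log2(CPM + 0.5) values. The script was tested on simulated data.

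Alternatives were DESeq2 1.42.0, its size factors in edgeR, TMM without the members, no filter, a lane term, leaving out each library and a fit of only the groups compared. Chosen after seeing the data were the fits without HFD fasted 28 and Ensure fasted 5 and without the 5 tract-rich libraries (Ensure fasted 2 and 5, Ensure fed 10 and 12, HFD fasted 24), so called for epididymis and testis genes. Windows of 50 bases of GENCODE M21 transcripts were aligned with bwa 0.7.19 (up to 2 mismatches). The 50 bases were an assumption, since the read length was not given. Coordinates are those of GRCm38, not of the authors' mm9.

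Members and lists were chosen with earlier results of these data known, and the list of mitochondrial ribosomal proteins was added after the files were seen. Named were 18 members whatever their values, up to 6 called per direction and comparison among members of at least 10 CPM, the 4 of smallest p where none was called, and up to 3 per list of other machinery. Some members that the counts include are not reported here by name.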

Additional observations from a re-analysis of the deposited data

Results flagged for a closer look

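Within each group and gene named, the highest or lowest library was compared with the spread of the others. Of 160 groups tested over 39 genes and the members' sum, 22 held a library that lay far from the rest. Chance gives about 1 in 20 for independent, normally distributed values. These groups are not independent: genes share libraries, the sum holds the members, and some genes were named by their p. Nothing is therefore read from the number of flags. Library HFD fasted 28 was far above its group in 9: the members' sum (5947 CPM), Rplp1 (448.2), Rpl14 (250.6), Rpl32 (192.3), Rps14 (111.8), Rps25 (91.29), Rpl23 (62.97), Rps27l (61.44) and Rpl21 (53.88 CPM). Ensure fasted 5 was far above its group in 3: the initiation factor subunit Eif3f (188.5 CPM), Rps14 (76.27 CPM) and Rpl3l (41.49 CPM).

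The paralogues known from testis and muscle gave 7 more. Rpl10l was far above the rest of its group in Ensure fasted 2 (8.448 CPM), HFD fasted 24 (2.257 CPM), HFD fed 21 (0.9526 CPM) and Ensure fed 10 (0.6154 CPM). Rpl39l was so in Ensure fasted 2 (7.122 CPM) and HFD fed 21 (0.8698 CPM), and Rpl3l in Ensure fed 10 (3.128 CPM). The remaining 3 were Rpl14 in HFD fed 27 (72.04 CPM), the mitochondrial ribosomal protein Mrpl28 in HFD fed 22 (39.87 CPM) and Eif4a2 in Ensure fasted 2, which was the lowest of its group (218.5 CPM).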

How the results depend on the processing

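No member was called for fasting in HFD, or for the difference of the fasting responses, under any alternative that was run. For fasting in Ensure, 2 members were called in the fit reported, 9 by DESeq2 (27.4% of all tested genes), 7 with the groups alone (24.4%), 1 with lane as a term, 8 without HFD fasted 28 and Ensure fasted 5 (25.5%), 1 without the 5 tract-rich libraries, and 1 to 5 with 1 library left out. For the diets while fed, 1 was called in the fit reported, 3 by DESeq2 (9.68%), 13 with the groups alone (19.8%), 0 with lane as a term, 9 without HFD fasted 28 and Ensure fasted 5 (14.5%), 0 without the tract-rich libraries, and 0 to 1 with 1 library left out. For the diets after fasting, 0 were called in the fit reported, 1 by DESeq2 (8.09%) and 0 to 2 with 1 library left out. Where a count of calls, of members or of another list, stands without the share of all tested genes, nothing is read from its change. The cause of these changes was not tested. Rpl14 for fasting in HFD changed sign without HFD fasted 28 (-0.058) and without HFD fasted 28 and Ensure fasted 5 (-0.080), and ran up to 0.905 with 1 library left out. Of the other values, 813 were counted as the same, 69 lost a call or moved to a lower count, and 28 gained a call or moved to a higher count. For single genes, the same means that direction and side of the threshold were kept, also where the gene was called in neither fit. For list counts it means a count near that of the fit reported, and for the members' summed levels a mean within the group's SD. No fit of the groups alone was made for the difference, since it needs all 4 groups. No paired analysis was possible because no replicate number occurs in more than 1 group. Depth limits the 38 members under 10 CPM most.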
